A study of Mus musculus with 29 samples.

Results

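Fibroblast growth factors (FGFs) are secreted signals that pass between the epithelium and the mesenchyme of the lung. They bind receptor tyrosine kinases encoded by Fgfr1 to Fgfr4, with heparan sulfate as a cofactor, and the activated receptors signal through the Ras and MAP kinase cascade, which also switches on its own inhibitors such as the Sprouty proteins. In the developing lung Fgf10 and Fgf7 are made by mesenchyme and act on the Fgfr2 isoform of the epithelium, Fgf9 comes from mesothelium and early epithelium, Fgf18 is a mesenchymal ligand, and Fgf1 is an acidic FGF that can engage every FGF receptor. Loss of Fgfr3 together with Fgfr4 is known to disturb the formation of alveolar septa in mice.

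The genes described are 5 ligands (Fgf1, Fgf7, Fgf9, Fgf10 and Fgf18), the 4 receptors (Fgfr1, Fgfr2, Fgfr3 and Fgfr4) and the feedback inhibitor Spry2. They were taken by name, through their NCBI gene identifiers, as 10 of the 22779 gene identifiers in the expression table, and all 10 passed the filter on low values that left 14616 genes for testing. Each was measured by RNA sequencing in alveolar septa cut by laser capture microdissection from the lungs of wild-type C57BL/6 mice, with large vessels and bronchi avoided. No treatment or allele separated the groups, which were compared by age; both sexes were labelled. The 29 libraries, each from 1 animal, covered 15 ages from E16.5 (embryonic) to P28 (postnatal), with 2 animals at every age but P28, which had 1. They were grouped here into a prenatal stage (E16.5 and E18.5, 4 libraries), a postnatal saccular stage (8 libraries, 2 each at P0.5, P1, P1.5, P2.5), an early alveolar stage (P4, P5, P7 and P10, 8 libraries) and a late alveolar stage (P13.5, P15, P19, P23 and P28, 9 libraries). Values are FPKM (fragments scaled to transcript length and to the mapped fragments of the library), and so allow levels of different genes to be set side by side. Fold changes are on the log2(FPKM + 1) scale, which understates the change of genes with low values, and adjusted p-values are from limma with Benjamini-Hochberg adjustment over all genes tested.

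Markers of the labelled tissue were present in every library: the 8 alveolar type 2 markers summed to between 2267 and 22927 FPKM and the 7 alveolar type 1 markers to between 281 and 1804 FPKM. Airway markers (436 to 5926 FPKM over 5 genes) and cardiac muscle markers (7.14 to 1732 FPKM over 4 genes) were also measured, and the cardiac sum was highest in the E16.5 embryos, at 961 and 1732 FPKM, against 31.6 and 102 FPKM in those of E18.5 and at most 451 FPKM after birth. The part of such tissue in results that rest on E16.5 was not tested. In 14 of the 29 libraries Xist and Y-linked genes went against the labelled sex, so no comparison by sex was made. The pup of P10 labelled a and the P19 pups labelled d and f listed 416, 578 and 242 of 8623 expressed protein-coding genes at 0, more than any other library, and some results below are also given without these 3. An FPKM of 0 is therefore reported as a listed value and not as absence.

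Fgf18 was the member with the steepest course. It stood low before birth, was higher in the first days of life, peaked at P7 and fell to 0 or near 0 from P19 on. Its gene lies on the minus strand of chromosome 11 (chr11:33116970-33147400, GRCm38.p6). Its promoter and that of Fgf10, which lies on the plus strand of chromosome 13 (chr13:118714699-118792573), are shown because both ligands are mesenchymal and only the former had an age course that passed the test; each is the run of 250 bases before the RefSeq start of the gene, 5′ to 3′ on the gene's strand, and capitals mark a GC box.
Fgf18 (chr11:33147401-33147650): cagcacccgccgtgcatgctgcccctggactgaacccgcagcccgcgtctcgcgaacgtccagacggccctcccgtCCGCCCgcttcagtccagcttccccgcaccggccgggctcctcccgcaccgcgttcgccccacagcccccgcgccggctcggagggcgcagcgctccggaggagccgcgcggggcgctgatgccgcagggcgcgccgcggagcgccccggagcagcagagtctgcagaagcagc
Fgf10 (chr13:118714449-118714698): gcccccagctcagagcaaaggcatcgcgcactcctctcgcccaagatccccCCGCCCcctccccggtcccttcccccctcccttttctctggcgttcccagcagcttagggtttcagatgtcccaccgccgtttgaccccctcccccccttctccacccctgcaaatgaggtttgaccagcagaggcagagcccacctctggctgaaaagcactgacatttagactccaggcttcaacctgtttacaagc
A promoter was in the RefSeq table for 8 of the 10 members. Both printed promoters held 1 GC box (GGGCGG on either strand), 174 bases before the start in Fgf18 and 199 bases before it in Fgf10. The same letters occur in 32.7% of all 32851 promoters of this length. No TATA box (TATAAA), ETS core (CCGGAA), TEAD site (GGAATG) or AP-1 site (TGACTCA) was found in either window on either strand, and these are held by 12.4%, 12.0%, 12.6% and 4.46% of all promoters.

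Before birth Fgf18 was at 4.72 and 0.289 FPKM in the embryos of E16.5 and at 1.95 and 7.42 FPKM in those of E18.5. In the postnatal saccular stage it ran from 4.08 through a median of 12.9 to 17.2 FPKM, and in the early alveolar stage from 12.3 through 18.5 to 24.0 FPKM. Every early alveolar library lay above all 4 prenatal libraries. In the late alveolar stage the values followed age: 17.3 and 5.83 FPKM at P13.5, 12.3 and 5.60 FPKM at P15, listed at 0 in both P19 pups, 1.29 and 2.27 FPKM at P23 and listed at 0 in the P28 pup. Both P19 pups are among the 3 libraries with many values at 0, at 578 and 242 of 8623 genes. The relative depth of the P19 to P28 libraries, estimated from the steps between low FPKM values, was 1.66 to 2.33 times that of the shallowest library, and that of the prenatal libraries was 1.18 to 1.53 times. The part of depth and of failed estimates in the values listed at 0 was not tested. The difference of the postnatal saccular from the prenatal stage was 1.69 ± 0.62 (SE) on the log2 scale and did not pass the test (limma adjusted p = 0.0605), and neither did that of the early alveolar from the postnatal saccular stage, at 0.68 ± 0.50 (adjusted p = 0.624). The late alveolar stage fell by 2.43 on the log2 scale from the early alveolar stage (SE 0.49, adjusted p = 0.00124, 9 of 9 libraries under the early alveolar median). With a pseudocount of 0.1 that difference was -3.66 (adjusted p = 0.00586). Fgf18 did not differ detectably between the late alveolar and prenatal stages (log2 difference -0.07, 95% interval from -1.30 to 1.17). As a share of the summed FPKM of the 5 ligands it went from 5.89% ± 4.83 (SD, n = 4) before birth to 14.8% ± 3.48 (n = 8), 24.5% ± 3.59 (n = 8) and 6.37% ± 8.23 (n = 9).

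**Figure D1:**
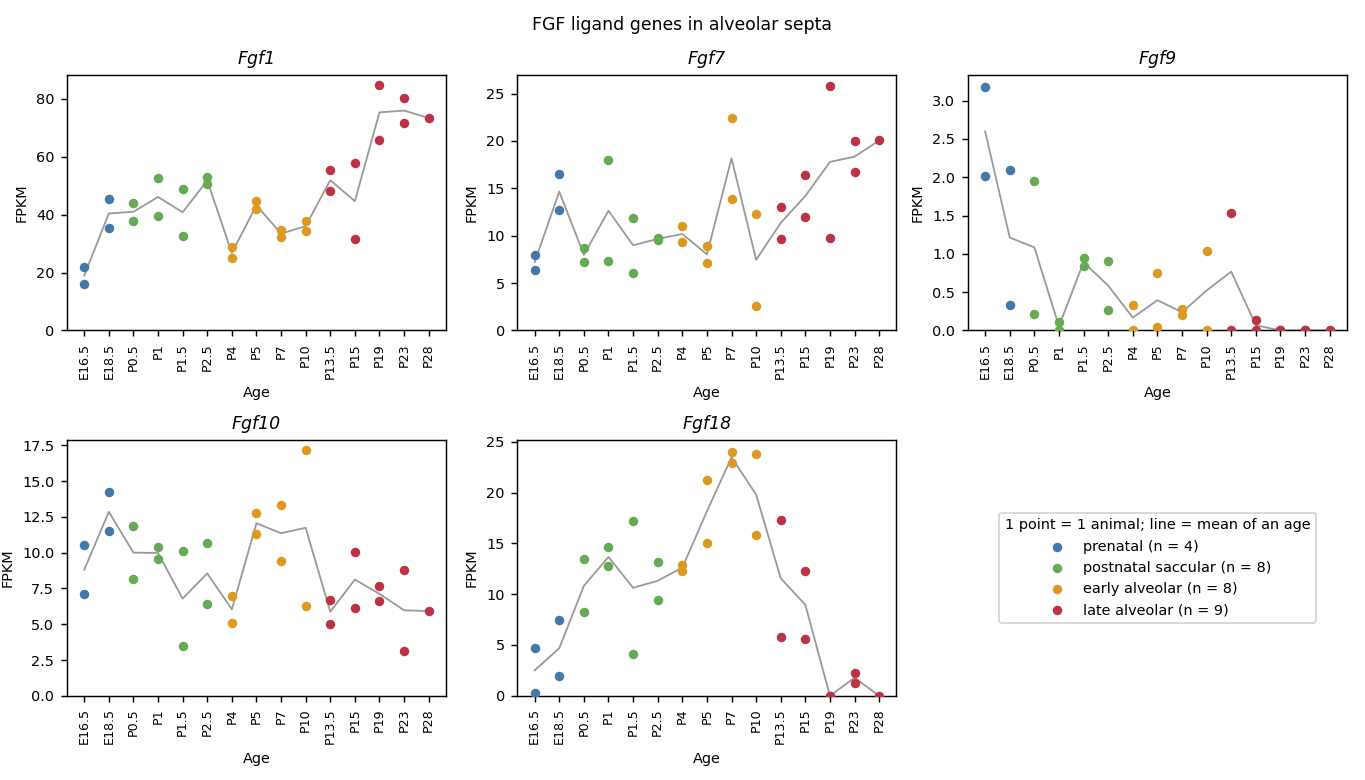
FPKM (y axis, linear from 0) of the 5 FGF ligand genes in each of the 29 libraries by age (x axis, in order, not to scale); points are animals coloured by stage and the line joins the means of the ages. Fgf18 climbs to about P7 and is listed at 0 in both P19 pups and the P28 pup, Fgf1 is highest from P19 on, and Fgf9 is highest at E16.5.

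Fgf1 was the most abundant of the 5 ligands in every stage and had a pattern of its own, with a rise before birth, lower values between P4 and P10 and the highest values from P19 on. It was at 21.97 and 15.9 FPKM in the E16.5 embryos and at 45.2 and 35.5 FPKM in the E18.5 embryos. It ran from 32.8 through a median of 46.5 to 53.0 FPKM in the postnatal saccular stage, from 24.9 through 34.4 to 44.6 FPKM in the early alveolar stage and from 31.5 through 65.7 to 84.9 FPKM in the late alveolar stage. The 5 libraries of P19 to P28 were all at 65.7 FPKM or more, above every earlier library. Fgf1 rose by 1.06 ± 0.27 (SE) on the log2 scale between E16.5 and E18.5 (adjusted p = 0.0251 in a fit of the 15 ages). It rose by 0.67 ± 0.23 from the prenatal to the postnatal saccular stage (adjusted p = 0.0453), and that call did not hold against the E18.5 embryos alone (0.14, adjusted p = 0.825). From the early to the late alveolar stage it rose by 0.81 ± 0.18 (adjusted p = 0.00350, 8 of 9 libraries above the early alveolar median). From the prenatal to the late alveolar stage it rose by 1.12 ± 0.23 (adjusted p = 3.68e-04), but against E18.5 alone the value was 0.59 and did not pass (adjusted p = 0.124). Its share of the summed ligands was 51.2% ± 6.15 (SD, n = 4), 59.8% ± 6.85 (n = 8), 46.8% ± 5.79 (n = 8) and 68.4% ± 10.2 (n = 9) in the 4 stages in order.

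Fgf9, the ligand of mesothelium and early epithelium, was the least abundant of the 10 genes. It was at 3.18 and 2.01 FPKM at E16.5 and at 0.332 and 2.10 FPKM at E18.5. After birth it was above 1 FPKM in 3 of 25 libraries, namely P0.5 pup f at 1.96 FPKM, P10 pup f at 1.04 FPKM and P13.5 pup c at 1.54 FPKM. It was listed at 0 in 1 of 8 postnatal saccular, 2 of 8 early alveolar and 7 of 9 late alveolar libraries. Fgf9 reached 1 FPKM in 6 libraries, and the filter needed 4, which the 25 postnatal libraries alone did not supply. Its tests against the prenatal stage are therefore of a gene admitted through the stage where it was high. Fgf9 fell by 1.26 on the log2 scale from the prenatal to the late alveolar stage (SE 0.31, adjusted p = 0.00249), or by 3.41 with a pseudocount of 0.1 (adjusted p = 0.00296). Against the E18.5 embryos alone the difference was -0.85 and did not pass (adjusted p = 0.153). Over the 29 libraries Pearson r of Fgf9 with summed marker lists on the log2 scale was -0.77 for endothelium, -0.69 for leukocytes, 0.55 for cardiac muscle and 0.53 for the epithelial tip. With the 4 mesothelial markers it was 0.31, and their sum was 24.9 and 30.1 FPKM in the E16.5 embryos and 86.3 and 93.0 FPKM in those of E18.5. The part of these cells in the fall of Fgf9 was not tested.

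Fgf7 and Fgf10, the ligands that act on the epithelial Fgfr2 isoform, passed no comparison of stages. Fgf10 was at 10.8 ± 2.94 FPKM (SD, n = 4), 8.83 ± 2.75 (n = 8), 10.3 ± 4.11 (n = 8) and 6.68 ± 2.03 FPKM (n = 9) in the 4 stages. Its late alveolar libraries all lay under the early alveolar median, with a log2 difference of -0.52 (95% interval from -1.001 to -0.04, adjusted p = 0.165). Fgf7 was at 10.9 ± 4.61 FPKM (SD, n = 4), 9.82 ± 3.74 (n = 8), 10.96 ± 5.78 (n = 8) and 15.9 ± 5.41 FPKM (n = 9). The late alveolar stage stood 0.60 above the early alveolar stage on the log2 scale (95% interval from 0.04 to 1.16, adjusted p = 0.164). The age course, a natural spline on the logarithm of days since conception, gave adjusted p = 0.110 for Fgf7 and 0.318 for Fgf10. Fgf7 passed it without the 3 libraries with many values at 0 (adjusted p = 0.0486) and without P10 pup a alone (0.0430).

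Fgfr1 and Fgfr2 had opposite courses. Fgfr2, whose epithelial isoform carries Fgf7 and Fgf10 signals, was the most abundant receptor before birth and lost ground after it. Fgfr1, known as a largely mesenchymal receptor, gained. Fgfr2 was listed on 1 line, so its isoforms were not told apart. Fgfr2 (chr7:130162451-130266808) was at 92.8 and 80.5 FPKM in the E16.5 embryos and at 141 and 129 FPKM in the E18.5 embryos. It ran from 52.5 through a median of 88.7 to 97.2 FPKM in the postnatal saccular stage, from 36.6 through 55.9 to 72.2 FPKM in the early alveolar stage and from 43.1 through 50.3 to 67.4 FPKM in the late alveolar stage. Its late alveolar and prenatal libraries did not overlap. Fgfr2 fell by 1.03 on the log2 scale from the prenatal to the late alveolar stage (SE 0.17, adjusted p = 3.86e-05). It fell by 0.58 into the early alveolar stage from the postnatal saccular one (SE 0.14, adjusted p = 0.0356). That call was lost without the 3 libraries with many values at 0 (-0.50, adjusted p = 0.0644). It was also lost in 11 of the 29 runs that left out 1 library, with differences from -0.67 to -0.50 over all 29. The postnatal saccular stage differed from the prenatal stage by -0.40 ± 0.18 (adjusted p = 0.126), and against E18.5 alone it was -0.72 and passed (adjusted p = 0.0405). Early and late alveolar levels differed by -0.06 (95% interval from -0.34 to 0.23).

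Fgfr1 (chr8:25518759-25575718) was listed on 4 lines of the table that differed in value and held 66.5%, 20.6%, 12.4% and 0.562% of its summed mean. The line with the highest mean is used unless stated. It was at 25.9 and 38.8 FPKM in the E16.5 embryos and at 28.4 and 34.4 FPKM in the E18.5 embryos. It then ran from 31.9 through a median of 40.1 to 49.0 FPKM, from 37.9 through 47.6 to 78.7 FPKM and from 41.8 through 61.2 to 72.1 FPKM in the 3 postnatal stages. Its mean by age was highest at P15, at 66.8 FPKM, and was 44.0 FPKM at P23, with the P28 pup at 57.3 FPKM. The late alveolar libraries all stood above the prenatal ones, and Fgfr1 rose by 0.85 ± 0.17 (SE) between these stages on the log2 scale (adjusted p = 3.68e-04). No step between neighbouring stages passed, at 0.35, 0.33 and 0.18 (adjusted p = 0.189, 0.2997 and 0.475). The other lines parted from it at the last step. In a fit with each line as its own row, the line with 12.4% of the summed mean fell by 1.43 from the early to the late alveolar stage (adjusted p = 0.0307) and the line with 20.6% differed there by -0.45 without passing (adjusted p = 0.102). Up to the early alveolar stage these lines had positive differences as the main line did, at 0.42 and 0.39 for the line with 20.6% and 0.55 and 0.25 for that with 12.4%, none of which passed. The line with 20.6% differed by 0.35 between the late alveolar and prenatal stages and did not pass (adjusted p = 0.226). Those with 12.4% and 0.562% differed there by -0.63 and -0.43 and did not pass either (adjusted p = 0.402 and 0.432). The rise thus passed in the main line only. A test of change over all ages gave adjusted p = 0.126, 0.0748 and 0.0431 for the lines with 20.6%, 12.4% and 0.562%. The last of these lines was listed at 0 in 24 of 29 libraries, among them 3 of the 4 prenatal ones. Its highest value, 6.85 FPKM, was in the remaining prenatal library, so little can be read from its course.

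**Figure D2:**
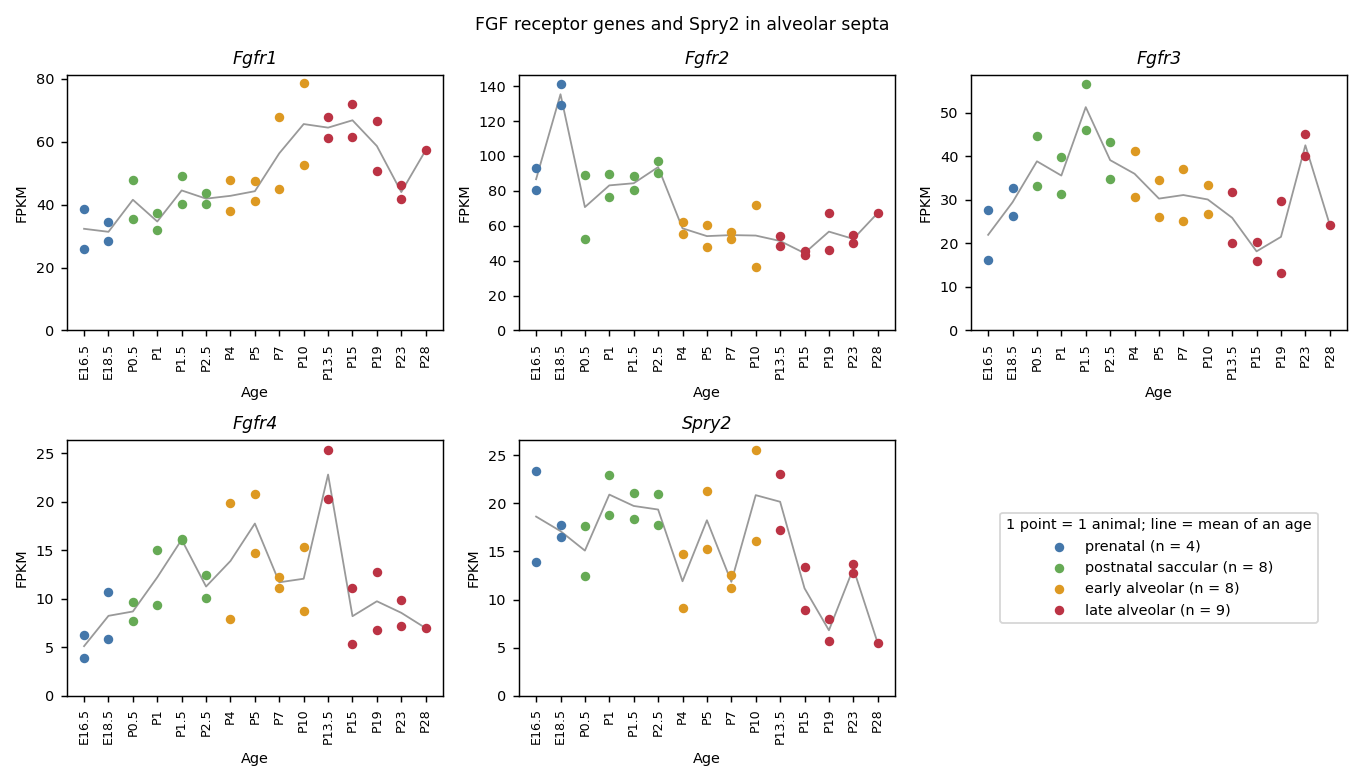
FPKM (y axis, linear from 0) of the 4 FGF receptor genes and Spry2 in each of the 29 libraries by age (x axis, in order, not to scale); points are animals coloured by stage and the line joins the means of the ages. Fgfr2 is highest at E18.5, at 129 and 141 FPKM, and Fgfr1 is lowest before birth; the Fgfr1 panel shows the line with the highest mean.

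The ratio of Fgfr2 to Fgfr1 in FPKM had a median of 3.67 before birth, 2.13 in the postnatal saccular stage, 1.16 in the early alveolar stage and 0.907 in the late alveolar stage. It was above 1 in 4 of 4, 8 of 8, 6 of 8 and 4 of 9 libraries. Within the late alveolar stage the ratio was not steady. It was 0.597 to 0.803 at P13.5 and P15, 1.01 and 0.907 at P19, and 1.18 to 1.21 at P23 and P28. With the 4 Fgfr1 lines summed the medians were 2.19, 1.31, 0.734 and 0.716, and no alveolar library of either stage was above 1. Of the summed FPKM of the 4 receptors Fgfr2 took 62.8% ± 5.48 (SD, n = 4) before birth and 35.3% ± 5.04 (n = 9) in the late alveolar stage, and Fgfr1 took 18.8% ± 5.84 and 39.1% ± 7.36. Across the 29 libraries Fgfr1 and Fgfr2 had the lowest Pearson r of all member pairs (-0.74 on the log2 scale). Libraries share age, so this describes the course over age.

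**Figure D3:**
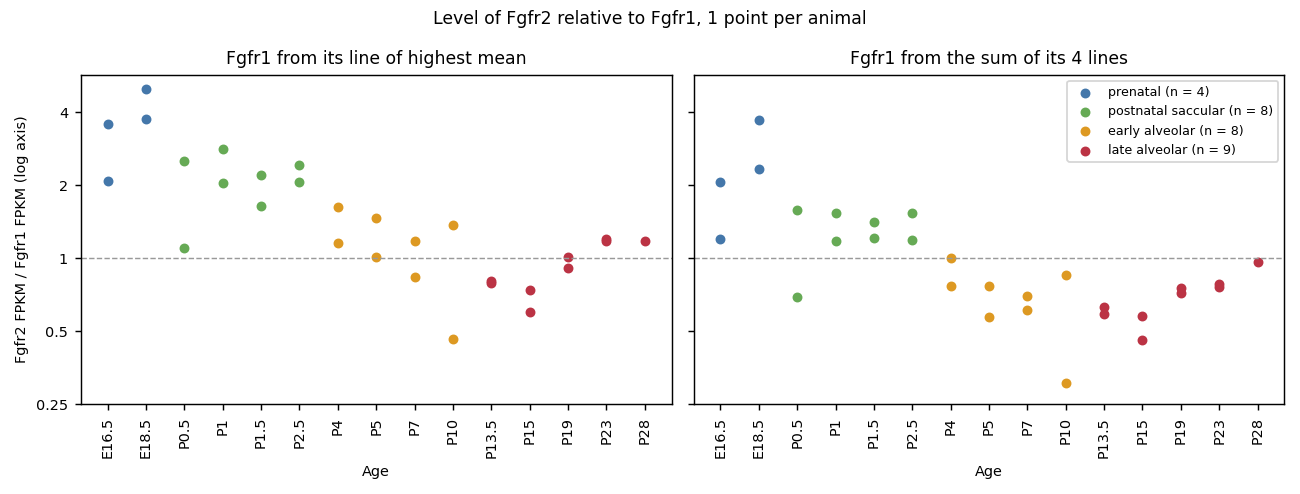
Ratio of Fgfr2 to Fgfr1 FPKM (y axis, log scale) in each of the 29 libraries by age (x axis, in order, not to scale), with Fgfr1 from its line of highest mean on the left and from the sum of its 4 lines on the right; points are animals coloured by stage and the dashed line marks a ratio of 1. The prenatal libraries lie at 2.08 or more on the left and at 1.20 or more on the right.

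Fgfr3 and Fgfr4, the pair needed together for septation, both had their lowest stage mean before birth, and the mean of Fgfr3 was nearly as low in the late alveolar stage. Fgfr3 was at 27.7 and 16.3 FPKM at E16.5, 26.3 and 32.7 FPKM at E18.5, and from 31.4 through a median of 41.6 to 56.7 FPKM in the postnatal saccular stage, where every library was above the prenatal median. It was at 31.9 ± 5.77 FPKM (SD, n = 8) in the early and 26.7 ± 10.8 FPKM (n = 9) in the late alveolar stage, with both P23 pups at 40.1 FPKM or more. Fgfr4 was at 6.68 ± 2.84 FPKM (SD, n = 4), 12.1 ± 3.33 (n = 8), 13.9 ± 4.78 (n = 8) and 11.7 ± 6.83 FPKM (n = 9), and its highest values were 25.3 and 20.3 FPKM in the P13.5 pups and 20.8 FPKM in P5 pup b. In the postnatal saccular stage both stood higher than before birth without passing the test, Fgfr3 by 0.68 (95% interval from 0.18 to 1.17, adjusted p = 0.0534) and Fgfr4 by 0.79 (0.13 to 1.46, adjusted p = 0.0940). With only those 2 stages in the fit both passed (adjusted p = 0.0291 and 0.0486), as did Fgf18 (0.0196), while Fgf1 did not (0.0642).

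Spry2, an inhibitor that FGF signalling switches on, was at 17.9 ± 4.02 FPKM (SD, n = 4), 18.8 ± 3.15 (n = 8), 15.7 ± 5.41 (n = 8) and 12.0 ± 5.75 FPKM (n = 9). Its 3 lowest libraries were the P28 pup at 5.47 FPKM and the P19 pups at 5.65 and 7.97 FPKM, the same 3 in which Fgf18 was listed at 0. No stage difference passed in the fit of 4 stages. The late alveolar stage stood 0.64 below the prenatal stage (log2 difference -0.64, 95% interval from -1.20 to -0.07, adjusted p = 0.0790). In the fit of 15 ages it passed in the late alveolar stage against the prenatal (-0.73, adjusted p = 0.00828) and the early alveolar stage (-0.51, adjusted p = 0.0384), and without P13.5 pup c the former passed in the fit of stages (-0.76, adjusted p = 0.0263).

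In total 1 of the 10 members passed between the prenatal and postnatal saccular stages, where 15.9% of all genes tested passed, and the count ran from 0 to 4 over the alternatives. Between the postnatal saccular and early alveolar stages 1 of 10 passed against 1.46% of all genes. Between the early and late alveolar stages 2 of 10 passed against 11.4%, and between the prenatal and late alveolar stages 4 of 10 passed against 31%. These 4, and the 8 of the age course below, include Fgf9, which the filter admitted through the prenatal stage, where it was high. Between E16.5 and E18.5 the count of members was 1 of 10 against 4.53%. The age course passed for 8 of 10 members against 30.7% of all genes, with the smallest adjusted p for Fgf18 (5.12e-06), then Fgfr1 (8.24e-05), Fgf1 (2.33e-04), Fgfr2 (3.29e-04), Fgf9 (0.00445), Fgfr3 (0.0115), Fgfr4 (0.0162) and Spry2 (0.0202). Without the 3 libraries with many values at 0 it was also 8 of 10, against 4851 of 14534 genes tested. Fgf7 was gained there (0.0486) and Spry2 lost (0.0755). Over postnatal libraries alone 5 members passed, and Fgfr4 (0.316) and Spry2 (0.0569) did not. Fgf9 was not tested there, because fewer than 4 postnatal libraries reached 1 FPKM. The share of all genes that passed in that run is not given. The members' median log2 difference was 0.21, -0.11, -0.26 and -0.03 in the 4 stage comparisons, beside 0.00, -0.03, -0.09 and -0.16 over all genes tested.

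**Figure D4:**
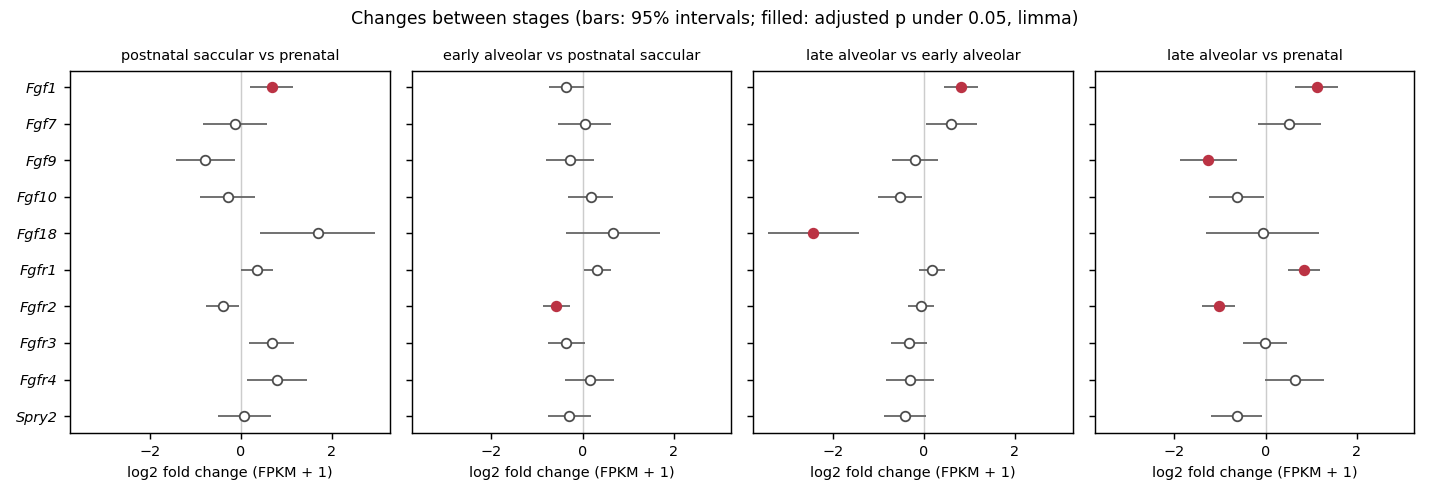
Log2 difference in FPKM + 1 (x axis) of the 10 genes in 4 comparisons of stages, with 95% intervals from limma as bars; filled points have an adjusted p under 0.05. Fgf18 has the widest intervals, its fall between the early and late alveolar stages is -2.43, and Fgfr1 and Fgfr2 lie on opposite sides of 0 between the prenatal and late alveolar stages, at 0.85 and -1.03.

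The residual SD within an age on the log2 scale was smallest in the 3 most abundant members, at 0.25 for Fgfr1, 0.26 for Fgf1 and 0.27 for Fgfr2, beside a median of 0.52 over all genes tested. It was highest for Fgf18, at 0.73. The other members lay between 0.30 for Spry2 and 0.56 for Fgf7.

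Levels in whole septa depend on which cells were captured, and fewer cells of a type and less RNA per cell cannot be told apart in these samples. Fgf18 ran with the 6 myofibroblast and smooth muscle markers, whose summed FPKM was 384 to 499 (median 439) before birth, 469 to 850 (693) in the postnatal saccular stage, 700 to 1870 (894) in the early alveolar stage and 252 to 1228 (400) in the late alveolar stage. In both alveolar stages the sum was mostly the elastin gene Eln, at a mean of 603 FPKM in the early and 389 FPKM in the late stage. Pearson r of the sum with Fgf18 over the 29 libraries was 0.82 on the log2 scale. Between the early and late alveolar stages 5 of these 6 markers fell, among them Acta2 (smooth muscle actin, -1.97), Actg2 (-2.49) and Myh11 (-1.23). Of all genes tested 7.47% fell there and 3.89% rose. Without the 3 libraries with many values at 0, 3 of the 6 fell, and 996 of 14534 genes did. None of the 6 was at 0 in any library. The 7 matrix fibroblast and lipofibroblast markers measured had r = 0.54 with Fgf18, with a median sum of 1092 FPKM in the early and 826 FPKM in the late alveolar stage. Of these 7, Col1a1 (-1.21), Col1a2 (-1.12), Col3a1 (-0.64) and Tcf21 (-0.61) fell between those stages and Pdgfra (1.02) rose. The part of these cells in the fall of Fgf18 was not tested.

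Fgfr2 ran with the 4 general epithelial markers, whose summed FPKM was 264 to 366 (median 331), 157 to 375 (267), 104 to 195 (134) and 99.3 to 237 (144) in the 4 stages, with none at 0 in any library. Pearson r was 0.77 with Fgfr2 and -0.75 with Fgfr1 over the 29 libraries. With the alveolar type 2 and type 1 markers r of Fgfr2 was only 0.16 and 0.20. The median sums of these 2 lists were 9855 and 700 FPKM before birth and 14378 and 1070 FPKM in the late alveolar stage. The highest r of Fgfr1 with a marker list was 0.52, for endothelium. It was 0.37 for myofibroblast and smooth muscle and -0.05 for matrix fibroblast and lipofibroblast markers. Between the postnatal saccular and early alveolar stages Krt8 (-0.91) and Krt18 (-1.05), both keratins of simple epithelia, fell, while Epcam (-0.96, adjusted p = 0.0750) and Cdh1 (-0.66, adjusted p = 0.0718) did not pass. Of all genes tested 0.937% fell there. Without the 3 libraries with many values at 0, 1 of the 4 fell, and 122 of 14534 genes did. The mesothelial marker sum had a median of 58.2 FPKM before birth, 84.1 FPKM in the postnatal saccular stage and 11.04 FPKM in the late alveolar stage (r = 0.70 with Fgfr2). It was mostly Msln, at a mean of 49.8 FPKM before birth and 5.83 FPKM in the late alveolar stage. Of the 4 mesothelial markers, 1 was called lower between these 2 stages, beside 18.3% of all genes. For Fgf1 the highest r were with the 5 leukocyte markers (0.80), whose median sum was 301 FPKM before birth and 1654 FPKM in the late alveolar stage, and with the 6 endothelial markers (0.74), at 475 and 959 FPKM. The leukocyte sum was mostly Lyz2, with a late alveolar mean of 1825 FPKM, and the next gene, Ptprc, was at 40.6 FPKM. With the alveolar type 2 and type 1 markers r of Fgf1 was 0.64 and 0.61. The part of these cell types in the courses of Fgfr2, Fgfr1 and Fgf1 was not tested.

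**Figure D5:**
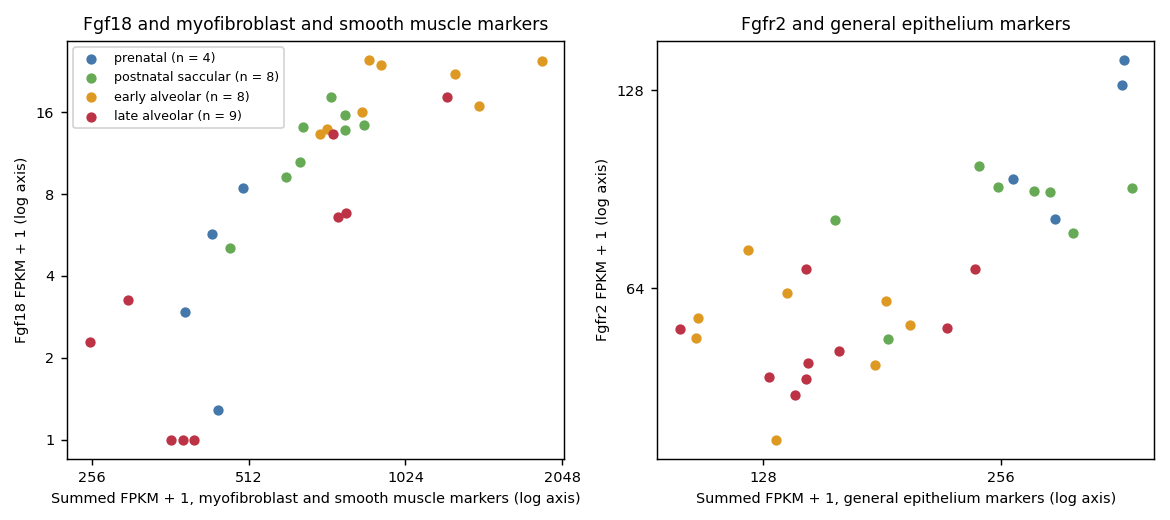
FPKM + 1 of Fgf18 against the summed FPKM + 1 of 6 myofibroblast and smooth muscle markers (left) and of Fgfr2 against that of 4 general epithelial markers (right), all axes on a log scale; points are the 29 libraries coloured by stage. Pearson r is 0.82 on the left and 0.77 on the right, and the 3 libraries with Fgf18 listed at 0 lie at the bottom of the left panel.

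Genes whose course over the 29 libraries was most like that of a member, by Pearson r on the log2 scale among 8994 named genes (8995 for Fgf9) with a mean of at least 5 FPKM, were Pappa2 (0.88), Aspn (0.87) and Tnc (0.86) for Fgf18. Aspn encodes a small proteoglycan of the matrix and Tnc the matrix protein tenascin C. For Fgfr2 they were Tcf20 (0.85), Nexmif (0.84) and the keratin gene Krt18 (0.82), and for Fgfr1 Ikzf3, Impdh1 and Fnbp1 (0.81, 0.81 and 0.80). For Fgf1 they were Mettl7a1 (0.91), Ahnak (0.87) and Podxl (0.86), the last a sialomucin of vascular endothelium and podocytes. The highest r of the other members ran from 0.69 (Gja5 with Fgf10) to 0.79 (Smtnl2 with Spry2), through Phf3 with Fgf7 (0.77), Alms1 with Fgf9 (0.75), Tmc4 with Fgfr3 (0.78) and Ltbp3 with Fgfr4 (0.75). These correlations share age and library and are descriptive.

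Beyond the members, 53 of 68 listed genes of the FGF pathway were tested. Of these, 9 rose and 3 fell between the prenatal and postnatal saccular stages (9.11% and 6.81% of all genes), 1 rose and 3 fell between the postnatal saccular and early alveolar stages (0.527% and 0.937%), 0 rose and 10 fell between the early and late alveolar stages (3.89% and 7.47%), and 9 rose and 17 fell between the prenatal and late alveolar stages (12.7% and 18.3%). Between E16.5 and E18.5 0 rose and 3 fell (2.52% and 2% of all genes): Fgf13 (-2.36), Flrt2 (-2.04) and Sulf2 (-1.92). Without the 3 libraries with many values at 0 the counts from the prenatal to the postnatal saccular stage were 10 and 6, those from the prenatal to the late alveolar stage 10 and 16, and those between E16.5 and E18.5 1 and 5, while those of the remaining 2 steps were as before. The age course passed for 27 of 53 (30.7% of all genes), or 26 without these libraries (4851 of 14534 genes). The pathway genes were not compared with E18.5 alone, so their prenatal comparisons rest on both embryonic ages together. The calls against the prenatal stage include those of Hs3st1 and Fgf2, which the filter admitted through postnatal libraries. The median log2 difference of the 53 genes between the early and late alveolar stages was -0.27, beside -0.09 over all genes tested.

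Genes that build or trim heparan sulfate, the cofactor that holds FGF on its receptor, made up 12 of the tested genes. From the prenatal to the postnatal saccular stage 4 of 12 rose and 1 fell (9.11% and 6.81% of all genes), and from the early to the late alveolar stage 0 rose and 5 of 12 fell (3.89% and 7.47%). Without the 3 libraries with many values at 0 these counts were 4 and 2, and 0 and 4. Ndst1, an N-deacetylase and N-sulfotransferase, was at 40.7 ± 8.75 FPKM (SD, n = 4) before birth and at 100.2 ± 19.1 FPKM (n = 8) in the postnatal saccular stage (log2 difference 1.28, adjusted p = 8.80e-06), and fell to 62.1 ± 10.2 FPKM (n = 8) in the early alveolar stage (-0.68, adjusted p = 0.0138). Hs3st1, a 3-O-sulfotransferase, was listed at 0 in 3 of 4 prenatal libraries and was at 4.55 to 11.3 FPKM in the postnatal saccular stage (2.67, adjusted p = 9.88e-05). Between the prenatal and late alveolar stages its difference was 3.41 (adjusted p = 6.33e-07). Both tests of Hs3st1 are of a gene that the filter admitted through the stages where it was high. Hs6st3, a 6-O-sulfotransferase, fell by 1.77 from the early to the late alveolar stage (adjusted p = 3.01e-05). Of the core proteins that carry heparan sulfate, the glypicans Gpc3 (-1.06) and Gpc4 (-1.73) also fell there (adjusted p = 0.00126 and 1.40e-04). Sdc1, an epithelial syndecan, and Fgfbp1, a carrier that releases FGF from the matrix, fell on entry into the early alveolar stage by 0.74 and 2.10 on the log2 scale (adjusted p = 0.0237 and 0.0252).

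The targets and inhibitors of the pathway did not share 1 direction. Spry1 was at 20.1 ± 9.26 FPKM (SD, n = 4) before birth, 62.4 ± 11.4 (n = 8), 67.7 ± 17.7 (n = 8) and 38.6 ± 12.2 FPKM (n = 9), with a rise of 1.65 from the prenatal to the postnatal saccular stage (adjusted p = 3.22e-05) and a fall of 0.83 from the early to the late alveolar stage (adjusted p = 0.00512). Spry4 was at 20.7 ± 7.99 FPKM (n = 4), 26.5 ± 6.56 (n = 8), 46.9 ± 13.1 (n = 8) and 26.8 ± 4.26 FPKM (n = 9). It rose by 0.80 into the early alveolar stage (adjusted p = 0.0221) and fell by 0.76 out of it (adjusted p = 0.00469). Both inhibitors had their highest stage mean in the early alveolar stage. Etv5, a transcription factor induced by FGF in epithelium, fell by 0.81 from the prenatal to the late alveolar stage (adjusted p = 0.00388). Etv4 was at or under 5.71 FPKM in every library and passed no stage test. Dusp6, a phosphatase that inactivates ERK, was at 51.0 ± 15.5 FPKM (n = 4), 55.8 ± 9.33 (n = 8), 65.5 ± 17.3 (n = 8) and 52.8 ± 12.3 FPKM (n = 9), also with its highest mean in the early alveolar stage, but passed no stage test. Its late alveolar and prenatal stages differed by 0.06 on the log2 scale (95% interval from -0.36 to 0.49). Mapk3, which encodes ERK1, rose by 1.03 from the prenatal to the postnatal saccular stage (adjusted p = 1.58e-04) and was 0.98 higher in the late alveolar than in the prenatal stage (adjusted p = 7.40e-05). Of the other ligands Fgf2, the basic FGF, rose by 2.72 between the prenatal and late alveolar stages (adjusted p = 1.07e-04), from values of at most 3.00 FPKM before birth, where 2 of 4 libraries listed it at 0, to a median of 11.4 FPKM. The filter admitted Fgf2, too, through the stages where it was high.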

How the data were processed

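Alveolar septa were isolated by laser capture microdissection from 29 mice, and total RNA depleted of ribosomal RNA was sequenced. Per the labels, the authors deposited FPKM values made with STAR 2.5.1 and Cufflinks 2.2.1 on mm10, in 1 table of 24486 lines. The members and gene lists were chosen with earlier results of these data known. Lines were matched by NCBI gene identifier to RefSeq symbols (GRCm38.p6; 22718 of 22779 matched), and of 1226 identifiers on more than 1 line the line with the highest mean was kept. Genes that reached an FPKM of 1 in 4 or more libraries were tested on log2(FPKM + 1) with limma 3.58.1 (R 4.3.3, trended moderation, Benjamini-Hochberg threshold 0.05) for 4 stages, for 15 ages, and for a natural spline (3 degrees of freedom) over the log2 of days from conception, birth being day 19. The scripts were tested on simulated data. Absolute depth is unknown. Steps between the low FPKM values gave relative depths over a range of 2.33, within a tolerance of 0.06 (log2) in 380 of 406 pairs of libraries, and the 3 libraries with many values at 0 were not the shallowest. Pathway genes were named by the smallest p, at most 4 a comparison, besides Etv4, Etv5, Dusp6, Spry1 and Spry4. Alternatives covered the pseudocount, filter, repeated lines, scaling, stage limits and each library left out. Animals of an age are separate animals.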

Additional observations from a re-analysis of the deposited data

Results flagged for a closer look

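Of 40 groups (10 genes in 4 stages), 2 held a library far from the rest of its stage, as many as chance gives in about 1 in 20 groups. Fgf9 in P13.5 pup c was the highest of the 9 late alveolar libraries at 1.54 FPKM, with the next at 0.138 FPKM and 7 listed at 0. Fgfr2 in P0.5 pup f was the lowest of the 8 postnatal saccular libraries at 52.5 FPKM, with the next at 76.5 FPKM. The same P0.5 pup had the highest Fgf9 of its stage, at 1.96 FPKM.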

How the results depend on the processing

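Of 17 member changes that passed, 9 kept direction and threshold in every alternative run: those of Fgf1 and Fgf18 between the early and late alveolar stages, those of Fgfr1 and Fgfr2 between the prenatal and late alveolar stages, and the age courses of Fgf1, Fgf18, Fgfr1, Fgfr2 and Fgfr3. For Fgfr1 these runs used its line of highest mean or the sum of its lines, not the other lines on their own. The count of members called between the prenatal and postnatal saccular stages was 0 with no filter and with median ratio scaling, 2 with a minimum FPKM of 5, 3 with quantile normalization, without the 3 libraries with many zeros and with only those 2 stages fitted, 4 in the fit of 15 ages, and 0 to 4 leaving out 1 library. Of all genes tested, 2327 of 14616 passed between these stages in the main run and 2954 of 14534 without the 3 libraries. Between the postnatal saccular and early alveolar stages the count of members was 0 without the 3 libraries, where 226 of 14534 genes passed. It was also 0 with the early stage ended at P7, and 0 to 1 leaving out 1 library. Against E18.5 alone, 2 of the 4 late alveolar calls were kept. The E18.5 call of Fgf1 was lost without E16.5 embryo 2 (adjusted p = 0.285) or E18.5 embryo 4 (0.243), so that count ran from 0 to 1. The age course passed for 5 members in postnatal libraries, where Fgf9 was not tested, and for 6 to 9 leaving out 1 library. Fgf9 and Fgfr4 were lost without E16.5 embryo 9 (0.0514 and 0.0904). Spry2 was lost without the P28 pup (0.142) or the 3 libraries (0.0755). The causes were not tested.

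Values that changed sign all belonged to differences that passed under no setting that reversed them. These were Fgfr1 (late against early alveolar, summed lines, -0.089), Fgfr2 (the same stages, median ratio scaling, 0.0073), Fgf18 (late alveolar against prenatal: quantile 0.086, without 3 libraries 0.45, early stage ended at P7 0.40), Fgfr3 (the same stages: median ratio 0.035, quantile 0.075, without 3 libraries 0.084, early stage ended at P7 0.043), Fgfr1 (E18.5 against E16.5, median ratio, 0.043) and Spry2 (the same ages, quantile, 0.019). Leaving out 1 library gave -0.32 to 0.090 for Fgf7 and -0.034 to 0.20 for Spry2 between the prenatal and postnatal saccular stages, -0.12 to 0.27 for Fgf7 into the early alveolar stage, -0.57 to 0.33 for Fgf18 and -0.20 to 0.12 for Fgfr3 between the prenatal and late alveolar stages, and -0.20 to 1.95 for Fgf18, -0.30 to 0.26 for Fgfr1 and -0.43 to 0.29 for Spry2 between E16.5 and E18.5. Quantile normalization moved the median of all genes between the prenatal and late alveolar stages from -0.16 to -0.01 and the share of calls that were higher from 41% to 51.7%, and from 34.2% to 46.2% between the alveolar stages. No paired analysis was possible because the animals of different ages are different animals and their letters pair none of them. The unknown absolute depth limits what can be said of Fgf9 and of Fgf18 at values listed at 0.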
